A study of Homo sapiens with 8 samples.

Results

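The 38 genes described here encode the enzymes, regulators and carriers of glycolysis and a set of transcripts known to respond to low oxygen. They comprise 18 glycolytic enzymes, 5 glycolytic regulators and carriers, 14 targets of the hypoxia-inducible factor (HIF) that lie outside glycolysis, and HIF1A itself. They were taken from a named list, matched through Entrez gene numbers, and make up 38 of the 22653 entries counted over the series. Of them 37 had counts and passed the filter on low counts, 13 of the 14 HIF targets among them. EGLN3, a prolyl hydroxylase, was listed in none of the 8 files and was taken as 0, which allows up to 0.163 to 0.173 CPM (counts scaled to the library total) in a library (3 counts of its total, counting error only).

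Poly(A) RNA came from the human monocytic line U937, and all 4 groups, controls included, lacked SLC19A1 (SLC19A1-/-). A tetracycline-inducible, Flag-tagged transporter had been added: SLC7A1 in the first line and SLC7A2 in the other, both carriers of cationic amino acids. The groups were the SLC7A1 line without doxycycline, the SLC7A1 line given 1 µg/mL doxycycline (dox) for 24 h, the SLC7A2 line without dox and the SLC7A2 line given the same dose and time, with 2 libraries in each. No line without a construct received dox, so the drug and the transporter cannot be told apart. Replicates are numbered 1 and 2 in the sample titles, which do not say that they came from separate cultures, so p-values measure only the spread between these libraries, which may be technical.

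Library totals ran from 17309132 to 18441833 expected counts. The construct entries matched the labels: SLC7A1_endo_Flag had 845 and 367 CPM with dox in its line against 0.264 and 0 CPM without, and SLC7A2_Flag had 264 and 4947 CPM with dox in its line against 0.563 and 9.65 CPM without. Both SLC7A2-line libraries numbered 2 stood apart on the first principal component of all entries, at 55.3 and 68.1 against -52.7 to -3.7 in the other 6 libraries. Of 12 markers of the monocytic line all were listed, but CSF1R and MPO lay near 0, at no more than 0.53 and 0.47 TPM (transcripts scaled for gene length and library). None of 5 erythroid markers was listed, 5 T cell markers together reached at most 0.31 TPM, and CD79A, a B cell gene, had 20.6 to 34.1 TPM.

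Glycolysis splits glucose into pyruvate, and lactate dehydrogenase turns pyruvate into lactate when it is not burned in mitochondria. HIF is a pair of proteins whose alpha subunit, HIF1A or EPAS1, is made continuously and destroyed in air, because prolyl hydroxylases such as EGLN1 mark it for the VHL ubiquitin ligase. When oxygen or the hydroxylases fail, HIF accumulates and binds short motifs with the core ACGTG or GCGTG near genes of glucose uptake, glycolysis, mitophagy and angiogenesis. In cells of the monocyte lineage this switch is known for setting how far energy comes from glycolysis. The level of HIF1A mRNA does not report that of the protein.

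Bases before the listed gene start are shown for these core motifs, a choice made after the levels had been seen. The genes are PFKFB4, ALDOC, ANKRD37, BNIP3 and P4HA1, whose levels differed widely between libraries, and the enzymes PGK1 and ENO1. The sequences are from RefSeq on GRCh38.p14, run 5′ to 3′ on the strand of the gene, and have each ACGTG or GCGTG on either strand (on the reverse strand CACGT or CACGC) in capitals. BNIP3 is shown from 250 to 91 bases before its start (chr10:131982014-131982173, minus strand) and PGK1 from 250 to 75 bases before (chrX:78103998-78104173, plus strand). The others are windows of 30 bases: ANKRD37 (chr4:185396676-185396705, plus), P4HA1 (chr10:73096936-73096965, minus), ALDOC (chr17:28576916-28576945, minus), PFKFB4 (chr3:48556953-48556982, minus) and ENO1 (chr1:8878741-8878770, minus).
BNIP3: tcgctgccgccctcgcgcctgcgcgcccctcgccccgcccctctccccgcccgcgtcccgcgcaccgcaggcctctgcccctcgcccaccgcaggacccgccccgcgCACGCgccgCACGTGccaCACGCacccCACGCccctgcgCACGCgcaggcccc
PGK1: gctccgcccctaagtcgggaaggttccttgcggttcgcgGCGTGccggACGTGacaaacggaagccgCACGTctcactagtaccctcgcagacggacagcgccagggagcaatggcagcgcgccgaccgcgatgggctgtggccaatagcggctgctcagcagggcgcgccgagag
ANKRD37: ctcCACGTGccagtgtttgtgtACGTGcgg
P4HA1: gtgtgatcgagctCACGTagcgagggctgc
ALDOC: caggcCACGCccccggaggagtCACGTagc
PFKFB4: gtgagttgggcatGCGTGgtcggaggccgg
ENO1: ggagctgaggggGCGTGccccggaggcggg

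Of the 20 members with 1 listed start, 10 held ACGTG on either strand in the 250 bases before it (50.0%), against 4077 of 22114 genes (18.4%). HIF targets outside glycolysis held it in 5 of 7 (71.4%) and glycolytic enzymes in 5 of 11 (45.5%). GCGTG was as frequent in the members as elsewhere, in 7 of 20 (35.0%) against 31.1% of all genes. The palindrome CACGTG, as in BNIP3 and ANKRD37, counts as ACGTG on both strands. A match describes these letters and is not evidence of a bound site. Part of the 250 bases lies in exons of the same gene in the GENCODE annotation. This held for all 250 in ALDOC, ANKRD37 and ENO1 and for the last 108 in P4HA1. In PFKFB4 it held for 155 bases, the first of them 214 before the start, so its window may hold exonic bases. The windows shown for ALDOC, ANKRD37, ENO1 and P4HA1 are therefore exonic in an annotated transcript. The stretches shown for BNIP3 and PGK1 end before any such exon.

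Levels along the pathway are given in TPM, which divides by transcript length and so allows genes to be compared. GAPDH, ENO1, ALDOA and PKM were the most abundant members by mean TPM. Not all enzymes of the later steps were as abundant, since PGK1 had a mean of 178 TPM. GAPDH, which oxidises glyceraldehyde 3-phosphate, had 6656 to 8059 TPM over the 8 libraries. ENO1, the main enolase, had 3529 to 5362 TPM, ALDOA, which cleaves fructose bisphosphate, 2193 to 3228 TPM, and PKM, pyruvate kinase, 2011 to 2996 TPM. Together the 18 enzymes took 18468 to 24213 TPM, whereas the 13 measured HIF targets took 290 to 664 TPM. Several of these enzymes have near-identical pseudogenes, so their counts depend on how reads were divided among copies.

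For most steps of the pathway 1 isozyme held the larger part of the TPM. HK1 held 67.3% to 78.9% of the hexokinase TPM, HK2, the hexokinase known to answer to HIF, 16.1% to 29.9%, and HK3 2.82% to 7.01%. ENO1 held 99.8% to 99.9% of the enolase TPM and ALDOA 95.0% to 99.2% of the aldolase TPM. Shares count members only, so the enolase ENO3 was left out. PFKL held 56.2% to 68.4% of the phosphofructokinase TPM, PFKP 31.5% to 43.5%, and PFKM, the muscle form, at most 0.333%. LDHB, the form known to favour lactate use, exceeded LDHA, with 58.8% to 70.3% of the lactate dehydrogenase TPM. Among glucose carriers SLC2A1 held 74.0% to 80.9% and SLC2A3 the rest.

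The pair PFKFB3 and PFKFB4, which make and break the activator of phosphofructokinase, was the family whose make-up varied most over the 8 libraries. PFKFB4 held 71.2% and 79.8% of their TPM in the SLC7A1 line without dox (libraries 1 and 2, the order used throughout) and 42.1% and 73.4% with dox. In the SLC7A2 line it held 74.0% and 22.4% without dox and 53.8% and 19.7% with dox. The share was therefore lowest in both SLC7A2-line libraries numbered 2. No test was made of these shares.

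**Figure D1:**
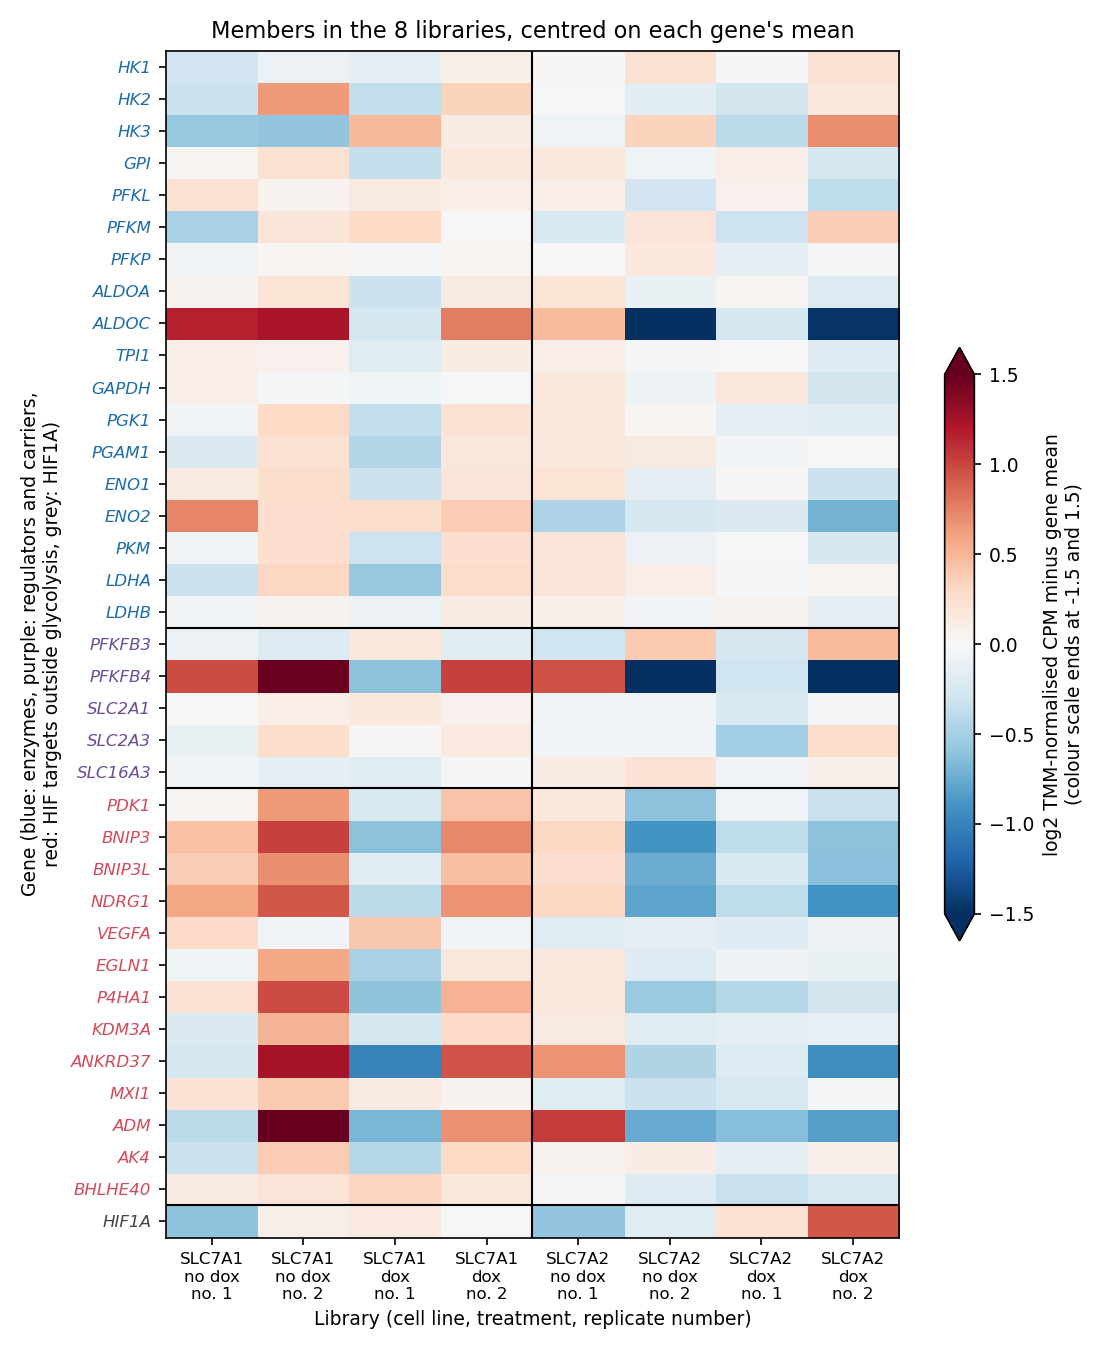
Heat map of log2 TMM-normalised CPM minus the mean of each gene over 8 libraries, for the 37 measured members (rows, grouped by list) in each library (columns). ALDOC, PFKFB4 and most HIF targets are high in the SLC7A1 line without dox number 2 and low in both SLC7A2-line libraries numbered 2, while PFKFB3, VEGFA and HIF1A have other patterns.

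Values per library below are CPM scaled by TMM factors, the scale of the tests, and gene positions are those of the RefSeq annotation of GRCh38.p14. Some HIF targets outside glycolysis and a few glycolytic members varied far more between libraries than the abundant enzymes did. In VEGFA, BHLHE40, MXI1, KDM3A and AK4 the highest library was 1.52- to 1.75-fold above the lowest, beside 1.36-fold in GAPDH and 1.85-fold in LDHA. PFKFB4 (chromosome 3, 48517684 to 48563136) had 102 and 145 CPM in the SLC7A1 line without dox, 33.9 and 106 CPM with dox, 101 and 16.2 CPM in the SLC7A2 line without dox, and 42.0 and 14.5 CPM with dox. Its highest library was 10.0-fold above its lowest, and only the libraries of the SLC7A2 line numbered 2 lay under 20 CPM. ALDOC (chromosome 17, 28573120 to 28576895), another aldolase known as a strong HIF target, had 176 and 183, 65.5 and 134, 109 and 25.6, and 65.2 and 28.3 CPM in the same order. The lowest values again belonged to the SLC7A2 line numbered 2.

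NDRG1, a stress-response gene, had 422 and 537 CPM in the SLC7A1 line without dox, 214 and 449.8 CPM with dox, 350.2 and 163 CPM in the SLC7A2 line without dox, and 216 and 151 CPM with dox. BNIP3, a mitophagy receptor, had 36.0 and 54.0, 17.3 and 43.5, 32.9 and 14.3, and 20.4 and 17.3 CPM. Both genes were highest in the SLC7A1 line without dox number 2. PDK1, a kinase that holds back pyruvate dehydrogenase, had 397 and 602, 331 and 521, 431 and 253, and 371 and 306 CPM, with the same library at the top. P4HA1, a subunit of collagen prolyl hydroxylase, ran from 39.0 to 117 CPM, BNIP3L, another mitophagy receptor, from 20.7 to 56.4 CPM, and EGLN1 from 9.31 to 19.5 CPM. ANKRD37 and ADM, the secreted peptide adrenomedullin, were scarce, at 0.729 to 3.48 and 0.87 to 4.62 CPM.

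VEGFA, the vascular growth factor, did not follow these genes. It had 114 and 90.7 CPM in the SLC7A1 line without dox, 124 and 89.5 CPM with dox, and 81.9 to 88.7 CPM in the 4 libraries of the SLC7A2 line. KDM3A, a histone demethylase, ran from 30.3 to 51.7 CPM, and BHLHE40, a transcriptional repressor, from 41.9 to 66.3 CPM. MXI1, a MYC antagonist, ran from 16.8 to 27.7 CPM, and AK4, a mitochondrial adenylate kinase, from 17.4 to 30.4 CPM.

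Among the enzymes, LDHA had 831 and 1291 CPM in the SLC7A1 line without dox, 699 and 1260 CPM with dox, 1186 and 1112 CPM in the SLC7A2 line without dox, and 1026 and 1074 CPM with dox. Within the SLC7A1 line the libraries numbered 1 lay well under those numbered 2. ENO1 had 6299 and 6891, 4607 and 6536, 6628 and 5201, and 5828 and 4603 CPM. GAPDH stayed between 5038 and 6852 CPM, PFKP between 221 and 271 CPM, and SLC2A1, the main glucose carrier, between 74.0 and 97.0 CPM. HK2 had 71.5 and 139.6, 69.4 and 113, 90.0 and 79.7, and 74.2 and 100.03 CPM. SLC2A3 had 20.0 to 34.3 CPM and SLC16A3, the lactate exporter, 348 to 452 CPM.

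Of the 37 measured members 20 were highest in the SLC7A1 line without dox number 2, 11 of the 13 HIF targets and 8 of the 18 enzymes among them. Over all tested entries 11.9% were highest in that library. The SLC7A1 line with dox number 1 was the lowest library for 13 members, and the share of all entries lowest there was not taken. The median of the HIF targets, each relative to its own mean on the log2 scale, was 0.64 in the SLC7A1 line without dox number 2, -0.40 in that line with dox number 1 and -0.43 in the SLC7A2 line without dox number 2. For the enzymes the same medians were 0.21, -0.22 and -0.05.

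**Figure D2:**
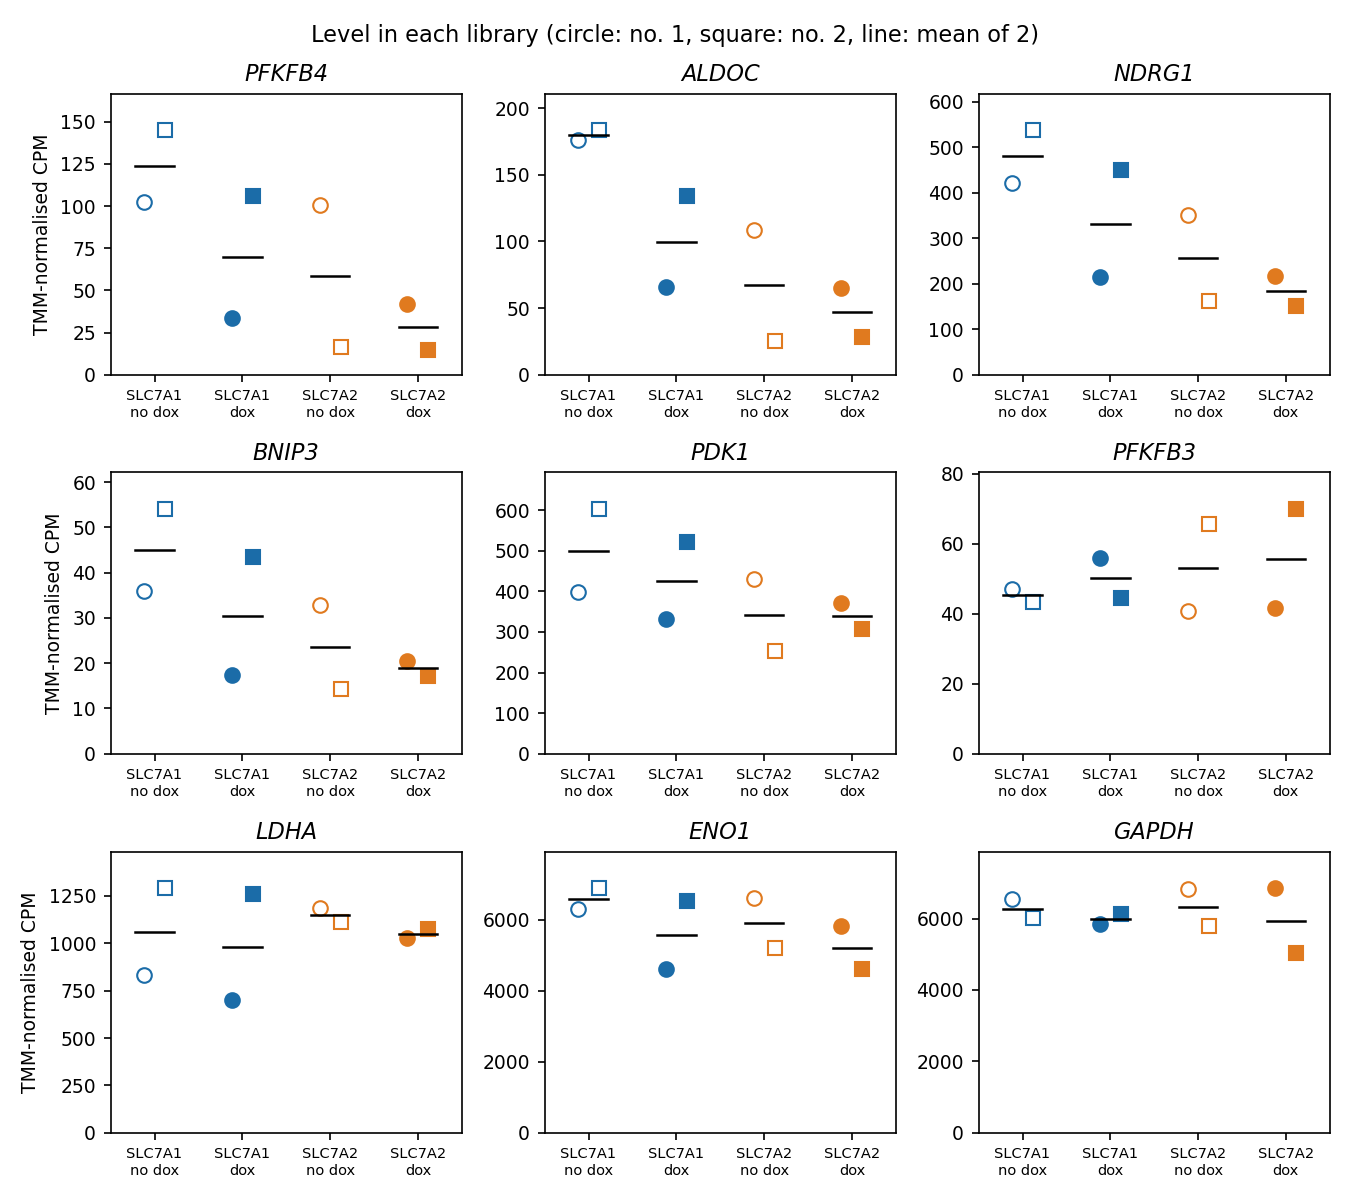
TMM-normalised CPM of 9 members (y axis, from 0) in the 4 groups (x axis); open symbols are without dox, filled with dox, circles are libraries numbered 1, squares those numbered 2, and lines the mean of 2. In PFKFB4, ALDOC, NDRG1 and BNIP3 the libraries of the SLC7A2 line numbered 2 lie at 14.3 to 163 CPM, the low end of each panel, while GAPDH stays between 5038 and 6852 CPM.

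The first comparison asked which members follow dox in the SLC7A1 line. HK3, the myeloid hexokinase, had the largest value, a log2 fold change of 0.90 ± 0.37 (SE), with 7.24 and 7.13 CPM without dox and 15.1 and 11.7 CPM with dox. ALDOC had -0.85 ± 0.67 and PFKFB4 -0.82 ± 0.87. The 18 enzymes had a median of -0.11, with 13 below 0, and the 13 HIF targets a median of -0.36, with 11 below 0, beside a median of -0.003 over all 17503 entries, of which 50.6% lay below 0. edgeR called 0 entries (0%), 0 members among them (adjusted p = 1 for each member named here), with 222 entries at an unadjusted p under 0.05. DESeq2 called 9 entries (0.0514%) and 0 members.

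Groups that did not overlap were no more frequent among the members than elsewhere. ALDOC and MXI1 were lower in both libraries with dox than in either without, 2 of 37 members against 11.0% of all entries, and HK3 was higher, 1 of 37 against 11.6%. The enzyme median changed sign without either of a pair of libraries: it was 0.03 without the SLC7A1 line without dox number 2 and 0.07 without the SLC7A1 line with dox number 1.

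In the SLC7A2 line HIF1A (chromosome 14, 61695513 to 61748258) had the lowest unadjusted p of the members (0.0199). It had 7.76 and 10.3 CPM without dox and 13.6 and 22.2 CPM with dox, a log2 fold change of 0.99 ± 0.33 (SE). ADM had -1.14 ± 0.88 and PFKFB4 -1.05 ± 0.89, and without the SLC7A2 line without dox number 1 these became 0.03 and 0.80. The enzymes had a median of -0.12, with 15 of 18 below 0, and the HIF targets one of -0.18, with 11 of 13 below 0, beside 0.007 over all entries, of which 48.5% lay below 0. edgeR called 0 entries (0%, adjusted p = 1 for each), with 224 at an unadjusted p under 0.05, and DESeq2 called 10 entries (0.0571%) and 0 members. Without the SLC7A2 line without dox number 1 the median of the HIF targets was 0.11, and with limma on TPM it was -0.0701, with 8 of 13 below 0. 6 members were lower in both libraries with dox than in either without: PFKP, PGK1, PGAM1, LDHA, SLC16A3 and BHLHE40, against 9.70% of all entries, and HIF1A was the only member that was higher, against 10.2%.

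The lines were then compared in their dox effect. The difference (SLC7A2 line minus SLC7A1 line) was largest for HK3 at -0.79 ± 0.51 (SE), HIF1A at 0.70 ± 0.47 and P4HA1 at 0.39 ± 0.59. The medians were -0.02 for the enzymes, 0.05 for the HIF targets and 0.006 for all entries, and the enzyme median was 0.04 with limma on TPM. edgeR called 0 entries (0%), with 222 at an unadjusted p under 0.05, and DESeq2 called 20 entries (0.114%) and 0 members.

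Over both lines the glycolytic enzymes and HIF targets lay slightly lower with dox, but no member passed the edgeR test. Of the enzymes 15 of 18 were below 0, with a median of -0.12, and of the HIF targets 12 of 13, with a median of -0.25, beside 48.3% of all entries and a median of 0.005. Among enzymes ALDOC had -0.69 ± 0.45 (SE), HK3 0.50 ± 0.28, PGK1 -0.21 ± 0.13 and ENO1 -0.21 ± 0.13. Among HIF targets ADM had -0.94 ± 0.57, NDRG1 -0.51 ± 0.29, BNIP3 -0.45 ± 0.34 and P4HA1 -0.39 ± 0.28. HIF1A had 0.64 ± 0.25. With limma on TPM the HIF-target median was -0.15, again with 12 of 13 below 0.

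Monocytic markers, and in the SLC7A2 line fibroblast markers, lay lower with dox as well, and their part in these values was not tested. The 12 monocytic markers had a median of -0.11 over both lines, with 10 below 0 and 0 called. In the SLC7A1 line 11 of 12 were below 0, and in the SLC7A2 line 7 of 12. The 3 tested fibroblast markers had a median of 0.11 in the SLC7A1 line, with 2 of 3 above 0. In the SLC7A2 line it was -3.02, with all 3 below 0 and 0 called. The 5 listed fibroblast markers together had 2.01 and 14.7 TPM in that line without dox and 0.73 and 1.39 TPM with dox. In bulk RNA a smaller number of cells of a type and less RNA per cell cannot be told apart.

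The other fixed members lay between -0.25 and 0.04 with dox over both lines. ALDOA had -0.17 ± 0.12, PKM -0.14 ± 0.14, LDHA -0.12 ± 0.19, HK2 -0.09 ± 0.23, GAPDH -0.08 ± 0.10 and PFKP -0.07 ± 0.08. EGLN1 had -0.25 ± 0.21, KDM3A -0.14 ± 0.18, PDK1 -0.12 ± 0.22 and VEGFA 0.04 ± 0.12. The glucose carriers SLC2A1 and SLC2A3 had -0.01 ± 0.09 and -0.02 ± 0.17, with the sign turned under scaling by library totals and on TPM. edgeR called 0 of 17503 entries (0%, adjusted p = 1 for each member), with 261 at an unadjusted p under 0.05, and DESeq2 called 1 entry (0.00571%) and 0 members.

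Same-numbered libraries of a line deviated together, and the difference within each pair was therefore also taken. PGK1 (chromosome X, 78104248 to 78129295), which makes ATP from bisphosphoglycerate, was lower with dox in all 4 pairs, by -0.33, -0.07, -0.31 and -0.18 on the log2 scale. Adding the replicate block made DESeq2 call PGK1 lower, at -0.22 ± 0.06 (SE, adjusted p = 0.0432), as 1 of 106 entries called (0.606%), while edgeR with the same block called 3 entries (0.0171%) and 0 members (lowest adjusted p = 0.832). For dox in the SLC7A1 line alone that block gave 45 called entries in DESeq2 (0.257%) and 2 in edgeR (0.0114%), and in the SLC7A2 line 26 (0.149%) and 1 (0.00571%), with 0 members in each.

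The enzymes lower with dox in all 4 pairs were 6 of 18: GPI, ALDOA, PGK1, PGAM1, ENO1 and LDHA. The HIF targets NDRG1, ANKRD37, ADM and AK4 were as well, 4 of 13, and so was PFKFB4. That made 11 of 37 members against 7.07% of all entries, and PFKFB3 was the only member higher in all 4, against 7.91%. The size of the difference was not alike in the pairs. The HIF-target median was -0.26 and -0.26 in the SLC7A1 line (pairs 1 and 2), -0.32 in pair 1 of the SLC7A2 line and 0.06 in its pair 2. The enzyme median was -0.24, -0.02, -0.14 and -0.12. Without both SLC7A2-line libraries numbered 2, the numbers of enzymes and HIF targets below 0 over both lines were 15 of 18 and 12 of 13, with medians of -0.12 and -0.36. Without both SLC7A1-line libraries numbered 2 they were 14 of 18 and 11 of 13, with -0.18 and -0.19.

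**Figure D3:**
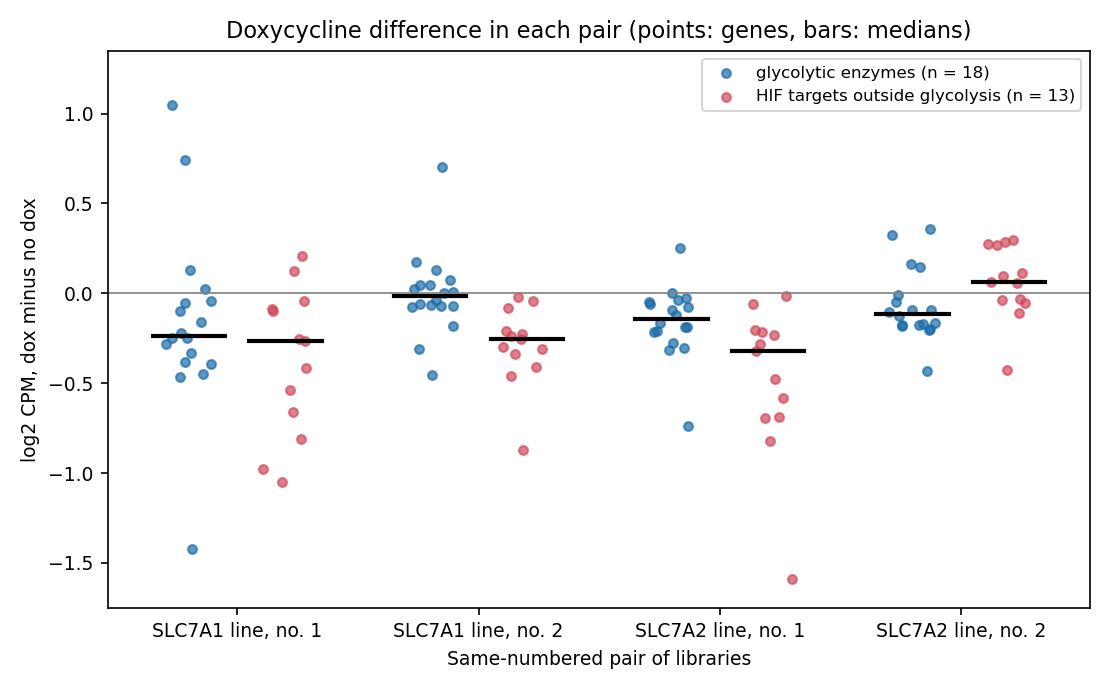
Difference in log2 CPM between dox and no dox (y axis) for each glycolytic enzyme and each measured HIF target in the 4 same-numbered pairs of libraries (x axis), with medians as bars. The HIF-target median runs from -0.32 in pair 1 of the SLC7A2 line to 0.06 in its pair 2, and the enzyme median from -0.24 to -0.02.

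Setting the lines against each other, over libraries with and without dox, gave no edgeR call, and HIF targets that were lower in the SLC7A2 line among the libraries numbered 2. Pooled, the HIF targets had a median of -0.44, with 12 of 13 below 0, and the enzymes one of -0.04, with 12 of 18 below 0, beside -0.004 and 50.5% for all entries. Between libraries numbered 1 the HIF-target median was -0.0573 without dox (7 of 13 below 0) and 0.11 with dox (4 of 13 below 0). Between those numbered 2, of which the SLC7A2-line libraries stood apart on the first principal component, it was -1.25 and -0.77, with 13 of 13 below 0 in both. The enzyme medians were 0.13 and 0.16 between libraries numbered 1, and -0.24 and -0.30 between those numbered 2. On TPM with limma the median of all entries moved up by 0.12, the enzyme median became 0.09 and that of the HIF targets -0.28. ALDOC had -1.26 ± 0.45 (SE, edgeR adjusted p = 0.347), PFKFB4 -1.19 ± 0.59 (adjusted p = 0.426) and NDRG1 -0.88 ± 0.29 (adjusted p = 0.331). ENO2, the neuronal enolase, had the lowest unadjusted p, at -0.82 ± 0.17 (adjusted p = 0.315). Its CPM was 11.9 to 16.7 in the SLC7A1 line and 6.14 to 8.64 in the SLC7A2 line, so the lines did not overlap. The same held for SLC2A1, VEGFA, MXI1 and BHLHE40, 5 of 37 members lower, against 5.11% of all entries, and for 0 members higher, against 4.35%.

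In this comparison edgeR called 0 entries (0%), with 2242 at an unadjusted p under 0.05, of which 8 were members. DESeq2 called 349 entries (1.99%), ENO2 (adjusted p = 0.0145) and BHLHE40 (adjusted p = 0.0334) among them. With the replicate block, which here is the number as an added term, edgeR called 256 entries (1.46%) and 0 members (lowest adjusted p = 0.056). DESeq2 with that term called 1480 entries (8.46%) and 4 members, HK1 higher and PFKL, ENO2 and BHLHE40 lower in the SLC7A2 line.

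Libraries were next compared by their replicate number. Taken over both lines, libraries numbered 2 against those numbered 1 gave 14 called entries in edgeR (0.0800%; 0.0457% higher and 0.0343% lower) and 0 members. HK2 had 0.49 ± 0.17 (SE, adjusted p = 0.156), ALDOC -0.52 ± 0.47 and PFKFB4 -0.45 ± 0.68. With a number effect for each line in the same fit, averaged over the lines, edgeR called 1992 entries (11.4%) and 5 members. HK2, PGAM1, LDHA and AK4 were higher and PFKL lower in libraries numbered 2. The contrast was then taken within each line, a choice made after these values had been seen. What the number stands for, such as a culture, a day or a library batch, is not given by the labels.

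In the SLC7A1 line members were higher in the libraries numbered 2. LDHA (chromosome 11, 18394563 to 18408425) was higher by 0.74 ± 0.08 on the log2 scale (SE, edgeR adjusted p = 0.0235). PGAM1, which shifts the phosphate of phosphoglycerate, was higher by 0.52 ± 0.07 (adjusted p = 0.0294), AK4 by 0.72 ± 0.10 (adjusted p = 0.0301) and PKM (chromosome 15, 72199029 to 72231591) by 0.43 ± 0.07 (adjusted p = 0.0476). PKM had 4190.4 and 5186 CPM without dox and 3528 and 5199 CPM with dox. These 4 members were called among 310 entries (1.77%), all 4 higher, where 0.611% of entries were called higher and 1.16% lower.

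The other HIF targets of that line were higher in the libraries numbered 2 without passing the edgeR test. KDM3A had 0.64 ± 0.11 (adjusted p = 0.0531), PDK1 0.63 ± 0.14 (adjusted p = 0.0777), P4HA1 0.93 ± 0.24 (adjusted p = 0.103) and BNIP3 0.92 ± 0.28 (adjusted p = 0.138). VEGFA went the other way, at -0.40 ± 0.07 (adjusted p = 0.0576). The HIF-target median was 0.65, with 11 of 13 above 0, and the enzyme median 0.26, with 14 of 18 above 0, beside -0.001 for all entries. Both libraries numbered 2 exceeded both numbered 1 in 10 of 13 HIF targets and 11 of 18 enzymes, 23 of 37 members in all, against 27.5% of all entries. PFKL, PFKFB3 and VEGFA lay wholly lower, 3 of 37 against 27.8%.

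In the SLC7A2 line the same contrast was below 0 for 10 of 13 HIF targets, while 4 of 5 regulators and carriers were above 0. PFKFB4 was lower by -2.09 ± 0.35 in the libraries numbered 2 (SE, edgeR adjusted p = 0.0245) and ALDOC by -1.61 ± 0.34 (adjusted p = 0.0372). BNIP3L was lower by -0.70 ± 0.17 (adjusted p = 0.0494), PFKL by -0.41 ± 0.07 (adjusted p = 0.0227) and GAPDH by -0.34 ± 0.07 (adjusted p = 0.0393). PFKFB3 (chromosome 10, 6144921 to 6326637) was higher by 0.72 ± 0.09 (adjusted p = 0.0145), with 40.8 and 65.7 CPM without dox and 41.7 and 69.9 CPM with dox. The 6 members were called among 1915 entries (10.9%), 5 of them lower, where 6.80% of entries were called lower and 4.14% higher.

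Members of that line that did not pass included NDRG1 at -0.80 ± 0.21 (adjusted p = 0.0588), ENO1 at -0.35 ± 0.09 (adjusted p = 0.0627) and PDK1 at -0.51 ± 0.14 (adjusted p = 0.0665). LDHA, called in the SLC7A1 line, had -0.01 ± 0.08. The HIF-target median was -0.25, with 10 of 13 below 0, and the enzyme median -0.15, with 12 of 18 below 0, beside 0.007 for all entries. The HIF-target median came mainly from the libraries without dox, at -0.71 (11 of 13 below 0) against -0.0265 with dox (7 of 13 below 0). It was -0.0460 without the SLC7A2 line without dox number 2, -0.73 without the SLC7A2 line with dox number 2, and -0.14 with limma on TPM. Both libraries numbered 2 lay under both numbered 1 in 17 of 37 members against 30.3% of all entries, and above them in 8 members against 30.0%.

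The difference between the number effects (SLC7A2 line minus SLC7A1 line) was itself tested, as an interaction. PFKFB4 had -3.13 ± 0.47 (SE, edgeR adjusted p = 0.0368), PDK1 (chromosome 2, 172555373 to 172724312) -1.14 ± 0.20 (adjusted p = 0.0453), LDHA -0.76 ± 0.11 (adjusted p = 0.0343) and PKM -0.71 ± 0.10 (adjusted p = 0.0343). PFKFB3 had 0.94 ± 0.12 (adjusted p = 0.0298), opposite to its relative PFKFB4. These 5 were called among 500 entries (2.86%), 4 of them lower, where 1.46% of entries were called lower and 1.40% higher. The median was -0.42 for the enzymes and -1.14 for the HIF targets, beside -0.01 for all entries. 13 members, GPI, ALDOA, ENO1, PKM, LDHB, PFKFB4, PDK1, BNIP3, BNIP3L, NDRG1, EGLN1, ANKRD37 and ADM, had libraries numbered 2 wholly above those numbered 1 in the SLC7A1 line and wholly below in the SLC7A2 line, against 5.88% of all entries.

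**Figure D4:**
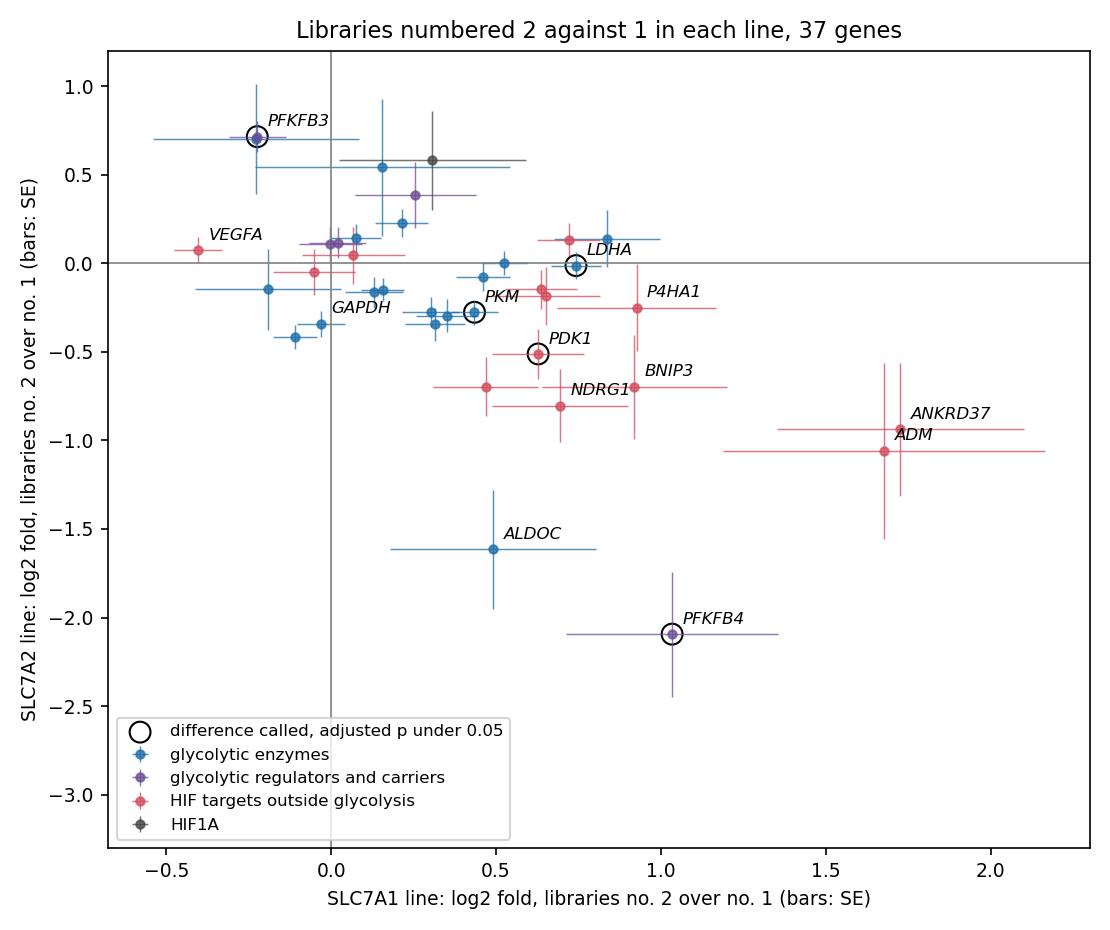
Log2 fold change of libraries numbered 2 over those numbered 1 in the SLC7A1 line (x axis) and the SLC7A2 line (y axis) for the 37 measured members, with SE bars and the 5 members whose difference between lines was called circled. Most HIF targets and PFKFB4 lie to the right of 0 and below 0, at 1.03 and -2.09 for PFKFB4, and PFKFB3 lies at the opposite corner, at -0.22 and 0.72.

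Leaving out 1 library removed many of these calls. Without any 1 library edgeR called 1 to 337 entries for the SLC7A1 line, 0 to 1541 for the SLC7A2 line and 1 to 26 for the difference, where of the 5 members only PDK1 was still called, and only without the SLC7A2 line with dox number 2. In the SLC7A1 line PKM was called in 0 of these 8 fits, and LDHA, PGAM1 and AK4 in 2, those without an SLC7A2-line library numbered 2. In the SLC7A2 line BNIP3L was called in 0 of 8, PFKL, GAPDH and ALDOC in 2, PFKFB4 in 4 and PFKFB3 in 5. The sign of each called member stayed in all 8 such fits. Without entries that lack a symbol edgeR called 11, 12 and 18 members in the 3 contrasts, among 833, 2507 and 906 of 11567 entries called. DESeq2 called 16, 14 and 22 members, among 12.1%, 21.1% and 11.5% of all 17503 entries. Scaling moved the balance of all calls: 37.8% of those in the SLC7A2 line were higher with TMM, 49.3% with library totals alone and 68.2% with limma on TPM, where the enzyme median became -0.002. With limma on TPM 49.7% of the calls in the SLC7A1 line were higher instead of 34.5%, and 66.8% instead of 49.0% for the difference.

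Other measures moved with the number too, and their part in these results was not tested. Among symbol-bearing genes with a mean log2 CPM above 3, the median number effect went from -0.04 in the shortest to 0.13 in the longest of 4 equal classes by transcript length in the SLC7A1 line, and from -0.08 to 0.14 in the SLC7A2 line. The granule genes ELANE, AZU1 and PRTN3, which mark immature myeloid cells, were lower in the SLC7A2-line libraries numbered 2, by -1.48 ± 0.18, -1.11 ± 0.14 and -1.25 ± 0.19 (SE, edgeR adjusted p = 0.0145, 0.0155 and 0.0208). They were among 4 of 12 monocytic markers called there, all lower, where 6.80% of all entries were called lower. Of the 12 markers 9 were below 0 and 3 above. CD68 had 62.1 and 63.7 CPM in that line without dox and 63.8 and 65.2 CPM with dox. The 12 together had 2947 and 2394 TPM in the SLC7A2-line libraries numbered 2, against 3670.1 to 5174 TPM in the other 6 libraries. Fibroblast markers reached 14.7 TPM in the SLC7A2 line without dox number 2 and 0.64 to 2.01 TPM elsewhere, with COL1A1 at 5.47 TPM.

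Genes that act upstream of the HIF targets were read from a list fixed beside the members. Of 13 genes of oxygen sensing and HIF subunits all were listed and 11 were tested. In the dox and line comparisons 0 were called, where edgeR called 0 of all entries. Their median was 0.04 with dox over both lines (9 of 11 above 0) and 0.08 with dox in the SLC7A1 line (11 of 11 above 0). VHL, the receptor of the ligase that destroys HIF1A, was lower in the SLC7A2-line libraries numbered 2 by -0.61 ± 0.08 (SE, edgeR adjusted p = 0.0163), and its partner ELOC was higher by 0.52 ± 0.10 (adjusted p = 0.0317). These 2 of 11 were called where 10.9% of all entries were. The difference between lines was called for VHL, at -0.72 ± 0.11 (adjusted p = 0.0383), as 1 of 11, against 2.86% of all entries. EGLN2, a HIF prolyl hydroxylase, had 81.2 to 122 TPM, EPAS1 1.37 to 4.75 TPM and HIF1A 2.24 to 8.23 TPM.

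Another list of 30 HIF targets was fixed beside the members. CA9, CA12 and PPP1R3C were not listed, and 22 of the 30 were tested. Their median was -0.13 with dox over both lines (16 of 22 below 0, 0 called), -0.28 between the lines (18 of 22 below 0, 0 called, with -0.00868 and 0.0117 between libraries numbered 1 and -0.59 and -0.35 between those numbered 2), 0.34 for the number in the SLC7A1 line and -0.19 in the SLC7A2 line. In the dox and line comparisons edgeR called 0 of all entries. CXCR4, a chemokine receptor, was higher in the SLC7A1-line libraries numbered 2 by 0.77 ± 0.09 (SE, edgeR adjusted p = 0.0274). It was 1 of 22 called there, where 0.611% of all entries were called higher. In the SLC7A2 line the demethylase KDM4B and the transcription factor ZNF395 were lower in those numbered 2, by -0.70 ± 0.12 (adjusted p = 0.0258) and -1.14 ± 0.23 (adjusted p = 0.0345). These were 2 of 22, where 6.80% of all entries were called lower. The difference between the number effects was called for 5 of 22, all lower: PGM1, KDM4B, HILPDA, ZNF395 and PAM, with values from -0.62 to -1.84. Over all entries 1.46% were called lower in that difference.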

How the data were processed

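Each deposited file holds 1 library. The authors deposited an expected count per gene, from RSEM per the file headers, with TPM, FPKM (not used) and gene length, which served only to sort genes by length. Per the submitters' processing notes the build was hg38 and the tools were RSEM 1.3.1, Bowtie2 2.3.4.3, DESeq2 1.4.5 and HISAT, without their roles. No source used here gives the strand setting, which leaves antisense and overlapping genes uncertain. The members and lists were chosen with earlier results of these data known.

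Expected counts were rounded, absent entries taken as 0, and entries kept by filterByExpr (minimum count 10, minimum total 15), which left 17503. TMM scaling preceded edgeR 4.0.16 (R 4.3.3), whose quasi-likelihood p-values were adjusted by Benjamini-Hochberg over all entries and called at 0.05. Each SE was obtained by dividing the size of the log2 fold change by the root of F. Dox per line and the difference used the 4 group means, the line, number and pooled dox comparisons additive terms, and the number within a line an interaction. Differences per pair are in log2 CPM with a prior count of 2. Shares of isozymes are of the deposited TPM. Same-numbered libraries correlated more in their deviations from group means within a line (0.197 and 0.312) than across lines (-0.024 to 0.15). The block therefore paired libraries within a line. Named genes were 17 fixed members, the 4 enzymes and 4 HIF targets with the largest value with dox over both lines, and the 3 members with the largest value in each other planned comparison (mean log2 CPM of at least 1). On simulated data (17503 entries) edgeR recovered 52.5% of changes of 1 on the log2 scale for dox in the SLC7A1 line. For dox over both lines it recovered 84%. Changed genes were drawn only from those with a mean log2 CPM above 3, and libraries were drawn independently. Scarcer members and libraries that deviate together were therefore not covered. Alternatives were DESeq2 1.42.0, limma 3.58.1 on log2(TPM + 1), other scalings and filters, and each library left out. Floors cover counting error only.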

Additional observations from a re-analysis of the deposited data

Results flagged for a closer look

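The effect of the replicate number differed between the lines for 5 members, by the interaction term of edgeR. The difference (SLC7A2 line minus SLC7A1 line) was -3.13 for PFKFB4, -1.14 for PDK1, -0.76 for LDHA, -0.71 for PKM and 0.94 for PFKFB3, on the log2 scale. In single pairs of libraries, number 2 minus number 1, PFKFB4 had 0.50 and 1.64 in the SLC7A1 line (without and with dox) and -2.63 and -1.53 in the SLC7A2 line, and PFKFB3 had -0.12 and -0.33 against 0.68 and 0.74. PDK1 had 0.60 and 0.66 against -0.77 and -0.28, and PKM 0.31 and 0.56 against -0.29 and -0.26. For LDHA these values were 0.64 and 0.85 against -0.0924 and 0.0663. The contrast was added after the data had been seen. Groups of 2 libraries are too small to test for a library far from its group.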

How the results depend on the processing

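With 2 libraries a group, calls and several directions changed with 1 library, and entries of low count are limited by depth. Dox in the SLC7A1 line gave 0 called entries in edgeR, 9 in DESeq2, 2 without a filter on low counts and 2 with limma on TPM, and the HIF-target median was -0.37 over genes with a symbol and -0.33 with limma. Adding the replicate block gave 2 (edgeR) and 45 (DESeq2) entries, and the median was -0.39 in both. Dox in the SLC7A2 line gave 10 in DESeq2 and 1 with limma, with an enzyme median of -0.0903 with library totals and -0.0524 with limma, a HIF-target median of -0.0701 with limma, and with the block 1 (edgeR) and 26 (DESeq2). The difference between the dox effects gave 20 in DESeq2, 3 with limma (HIF-target median 0.25) and 21 with the block in DESeq2. Dox across both lines had a HIF-target median of -0.15 with limma, and gave 1 call in DESeq2, 2 without a filter, 1 without both SLC7A2-line libraries numbered 2, and with the block 3 (edgeR) and 106 (DESeq2). Apart from PGK1 in DESeq2 the block changed no call of a member for dox.

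HK2 turned to 0.00975 without both SLC7A1-line libraries numbered 2. SLC2A1 turned to 0.0137 with library totals and 0.0326 with limma, and SLC2A3 to 0.00617 with library totals, 0.00739 with limma and 0.0222 without both SLC7A1-line libraries numbered 2. The line comparison gave 349 calls in DESeq2, 3 without a filter, and 256 (edgeR) and 1480 (DESeq2) with the number as a block. The number over both lines gave 14 calls, but 1624 in DESeq2, 746 over genes with a symbol, 626 with limma, and 1992 (edgeR) and 3885 (DESeq2) averaged over the lines. Within the SLC7A1 line it gave 2126 in DESeq2, 833 over genes with a symbol and 755 with limma (HIF-target median 0.59). Within the SLC7A2 line it gave 3686 in DESeq2 and 3084 with limma, with an enzyme median of -0.0803 with library totals and -0.00228 with limma. The difference gave 2012, 906 and 992. By expected counts instead of TPM the isozyme shares were 67.8% for HK1, 99.8% for ENO1, 47.1% for LDHB and 75.2% for SLC2A1. Except where construction shows it, the cause was not tested.

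Leaving out 1 library at a time gave these ranges. Dox in the SLC7A1 line had enzyme medians of -0.34 to 0.0657 and HIF-target medians of -0.71 to -0.0538. Dox in the SLC7A2 line had 0 to 1 calls, -0.24 to -0.0447 and -0.35 to 0.11, with ADM at -1.78 to 0.0285 and PFKFB4 at -2.01 to 0.80. The difference between the dox effects had -0.17 to 0.20 and -0.18 to 0.53, with P4HA1 at -0.0640 to 1.06. Dox across both lines had an enzyme median of -0.20 to -0.0579 and a HIF-target median of -0.35 to -0.0691, HK2 at -0.23 to 0.16, GAPDH at -0.17 to 0.00528, LDHA at -0.31 to 0.0239, SLC2A1 at -0.0431 to 0.0442, SLC2A3 at -0.19 to 0.12, PDK1 at -0.28 to 0.0318, VEGFA at -0.0614 to 0.13 and KDM3A at -0.27 to 0.0258. The line comparison had 0 to 1 calls and medians of -0.12 to 0.0294 and -0.58 to -0.32. The number over both lines had 0 to 7, with PFKFB4 at -1.16 to 0.24. Within the SLC7A1 line it had 1 to 337 calls and a HIF-target median of 0.54 to 0.74, and within the SLC7A2 line 0 to 1541 and an enzyme median of -0.19 to -0.12, with a HIF-target median of -0.73 to -0.0460. The difference between the number effects had 1 to 26 calls and a HIF-target median of -1.41 to -0.77.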

Other observations

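Other enzymes of glucose use were mostly those of the pentose phosphate and glycogen pathways, with ENO3 and ADPGK among them. They showed 0 calls in the dox and line comparisons (14 of 23 tested), and 3 followed the number in the SLC7A2 line. There PGD, which yields NADPH in the pentose phosphate pathway, was higher in the libraries numbered 2 by 0.32 ± 0.07 (SE, edgeR adjusted p = 0.043), PGM2, a phosphopentomutase, by 0.36 ± 0.09 (adjusted p = 0.0491) and TIGAR, a fructose bisphosphatase, by 1.09 ± 0.22 (adjusted p = 0.0338). These 3 of 14 were called higher where 4.14% of all entries were.

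Genes of pyruvate entry and the TCA cycle (25 of 26 tested) had a median of 0.01 with dox over both lines and 0 calls there. In the SLC7A2 line 4 of 25 were lower in the libraries numbered 2: the pyruvate carrier MPC2 by -0.45 ± 0.09 (SE, edgeR adjusted p = 0.0305), PDK2 by -0.68 ± 0.14 (adjusted p = 0.0359), IDH3G by -0.46 ± 0.08 (adjusted p = 0.0245) and SDHA of succinate dehydrogenase by -0.42 ± 0.06 (adjusted p = 0.0205). Over all entries 6.80% were called lower there. In the SLC7A1 line DLAT, a subunit of pyruvate dehydrogenase, was higher in the libraries numbered 2 by 0.72 ± 0.10 (adjusted p = 0.0347). It was the only call of 25, where 0.611% of all entries were called higher.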
